A study of Drosophila melanogaster with 3 samples.

Results

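The 39 genes described here encode the proteins of the small subunit of the cytosolic ribosome in Drosophila melanogaster, and they are 39 of the 13968 protein-coding genes annotated on the main chromosome arms. They were chosen by name, as the coding genes whose symbol begins with RpS together with sta, and genes of the mitochondrial ribosome were not included. Bound genes are those with at least 1 annotated transcription start site (TSS) no more than 500 bp from the summit of a thresholded peak. By that rule 30 of the 39 genes (76.9%) were bound, against 15.4% of all coding genes.

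The chromatin came from a fly line that stably carries wek (weckle) with green fluorescent protein (GFP) at the C terminus, and from whole embryos of both sexes between 0 and 16 hours of age. The study holds 1 group of 3 biological replicates of that line, sonicated to fragments of 200 to 800 bp, so no treated and untreated embryos are compared. Signal from all cell types of the embryo is averaged, and the tagged copy stands for the native protein. The free text given with each library describes an input control, while the assay title, the antibody field and the series type describe chromatin immunoprecipitation and sequencing (ChIP-seq) of wek. The values below were read as wek ChIP-seq. An untagged line was not analysed here, and the numbers of reads behind the regions are unknown.

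Ribosomal proteins are made in equal amounts and in very large quantity, and their genes are among the most active of the embryo. In flies, loss of 1 copy of many of them gives the Minute phenotype of slow growth and short bristles, and most of their transcripts start at a polypyrimidine initiator, a run of pyrimidines that replaces the ordinary initiator at the start site. The protein encoded by wek has a ZAD domain and zinc fingers, and its known role is to link the Toll receptor to its downstream partners when the dorsoventral axis is set up.

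The sequences under the peaks differed from gene to gene. The stretches shown here come from the RefSeq genome of the assembly that dm6 stands for. They are read 5′ to 3′ on the strand of the gene, and were picked because RpS20 and RpS4 had the strongest peaks of the set, and because RpS25 and RpS12 carry the DRE, the site of the transcription factor DREF. Capitals mark GAATACCC in RpS4, a word tabulated here because it recurs among the peaks of this series, and the DRE (TATCGATA) in RpS25 and RpS12. The RpS20 line has no capitals because none of the 6 elements searched was found within 100 bp of its summit. In order, the stretches lie at chr3R:20821977-20822097 (plus strand), chr3L:13041675-13041785 (plus), chr3R:11216288-11216388 (minus) and chr3L:13023295-13023372 (plus).
RpS20: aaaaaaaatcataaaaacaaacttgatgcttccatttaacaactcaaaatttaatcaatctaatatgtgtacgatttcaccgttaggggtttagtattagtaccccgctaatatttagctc
RpS4: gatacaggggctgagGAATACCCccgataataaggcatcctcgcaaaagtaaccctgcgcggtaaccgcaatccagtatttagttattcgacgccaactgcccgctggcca
RpS25: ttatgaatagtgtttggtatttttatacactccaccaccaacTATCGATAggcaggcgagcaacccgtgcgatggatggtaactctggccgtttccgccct
RpS12: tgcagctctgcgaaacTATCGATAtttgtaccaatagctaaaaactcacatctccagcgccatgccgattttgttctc

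The strongest peaks of the set lay at genes of both parts of the small subunit, its head and its body with platform. RpS20, a protein of the head, had the peak of rank 2 among the 3582 thresholded peaks (chr3R:20821724-20822395). Its signal, the authors' own value for a region, was 4319 in the thresholded list and 2368, 1492 and 483 in replicates 1, 2 and 3. These gave ranks of 2, 1 and 13 in the replicates, where rank 1 is the strongest of the 30000 regions of a list. Its summit lay 144 bp upstream of the TSS, and 179, 146 and 194 bp upstream in the replicates, so the peak was farther from the TSS than at any other bound member except RpS28a and RpS28-like. The same summit lay 189 bp upstream of the TSS of CG17271, which runs in the opposite direction, and the peak cannot be assigned to 1 of the pair from these lists.

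RpS4, a protein of the body, came next (chr3L:13041393-13042016), with a signal of 1886 and rank 30. Its replicate signals of 1013, 462 and 522 gave ranks of 35, 50 and 7. No other coding gene had a TSS within 500 bp of that summit, which lay 21 bp upstream of the TSS of RpS4. RpS27, a zinc-binding protein of the body, had a signal of 1115 (chr3R:25247365-25247656, rank 114), with ranks of 123, 133 and 63 in the replicates. Its summit lay 15 bp downstream of the TSS and also 159 bp upstream of Nup37, a gene of the nuclear pore.

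Among the other head proteins, RpS10b had a signal of 774 (chrX:19597892-19598180, rank 218) and the replicate ranks 209, 253 and 238. Its mean rank of 233 ± 22.4 (SD, n = 3) was among the most even across replicates. RpS25, whose human counterpart is known from translation that begins at internal entry sites, had a signal of 643 (chr3R:11216196-11216465, rank 304) and replicate ranks of 314, 322 and 278. RpS28b lies near the exit of the messenger RNA channel. Its signal was 605 (chrX:9554469-9554731, rank 338), with replicate ranks of 325, 466 and 272. RpS19a, the fly counterpart of the gene most often mutated in human Diamond-Blackfan anaemia, had a signal of 540 (chrX:16637754-16638001, rank 407) and replicate ranks of 424, 533 and 310. The RpS19a summit, 16 bp upstream of its own TSS, also lay 464 bp upstream of Rok.

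RpS12 and RpS18 completed the head proteins among the 12 members of highest signal. RpS12, known in flies for its part in cell competition between Minute and normal cells, had a signal of 534 (chr3L:13023257-13023477, rank 413) and replicate ranks of 422, 975 and 254. RpS18 had a signal of 524 (chr2R:20263876-20264121, rank 422). Its replicate ranks of 440, 1531 and 162 were far apart (mean 711 ± 724, SD, n = 3), with replicate 2 the lowest. That summit also lay 306 bp upstream of plu, a regulator of the cell cycle of the early embryo.

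Of the body proteins, RpS3A had a signal of 602 on chromosome 4 (chr4:67093-67356, rank 340) and replicate ranks of 327, 759 and 206. RpS7 had a signal of 517 (chr3R:30208753-30209057, rank 433) and replicate ranks of 514, 554 and 270.

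Bound members of lower signal were, in falling order from 502 at RpS16 to 162 at RpS14a, RpS16, RpS5a, RpS23, RpS27A, RpS21, sta, RpS15Aa, RpS28a, RpS15, RpS29, RpS24, RpS28-like, RpS2, RpS6, RpS14b and RpS14a. RpS16, whose tail reaches the decoding site, had replicate ranks of 384, 769 and 431. RpS23, a protein of the decoding centre, had a signal of 447 and rank 561, with replicate ranks of 625, 1017 and 332. RpS27A, which is made as a fusion with ubiquitin, had a signal of 431 and rank 590, with replicate ranks of 535, 1316 and 354. In all 3 of these genes replicate 2 was the weakest. The same held for RpS21 (signal 374, replicate ranks 647, 1370 and 829), for sta, which encodes a protein related to the laminin receptor (signal 336, replicate ranks 789, 2468 and 599), and for RpS15 of the head (signal 292, replicate ranks 1112, 1557 and 874). At RpS24, with a signal of 256, replicate 2 was the strongest, and the ranks were 1371, 1259 and 1890. The gene of RpS6, the known substrate of S6 kinase, had a weak peak with a signal of 185 and rank 2393, and its replicate ranks of 2065, 3161 and 2599 were low in all 3.

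**Figure D1:**
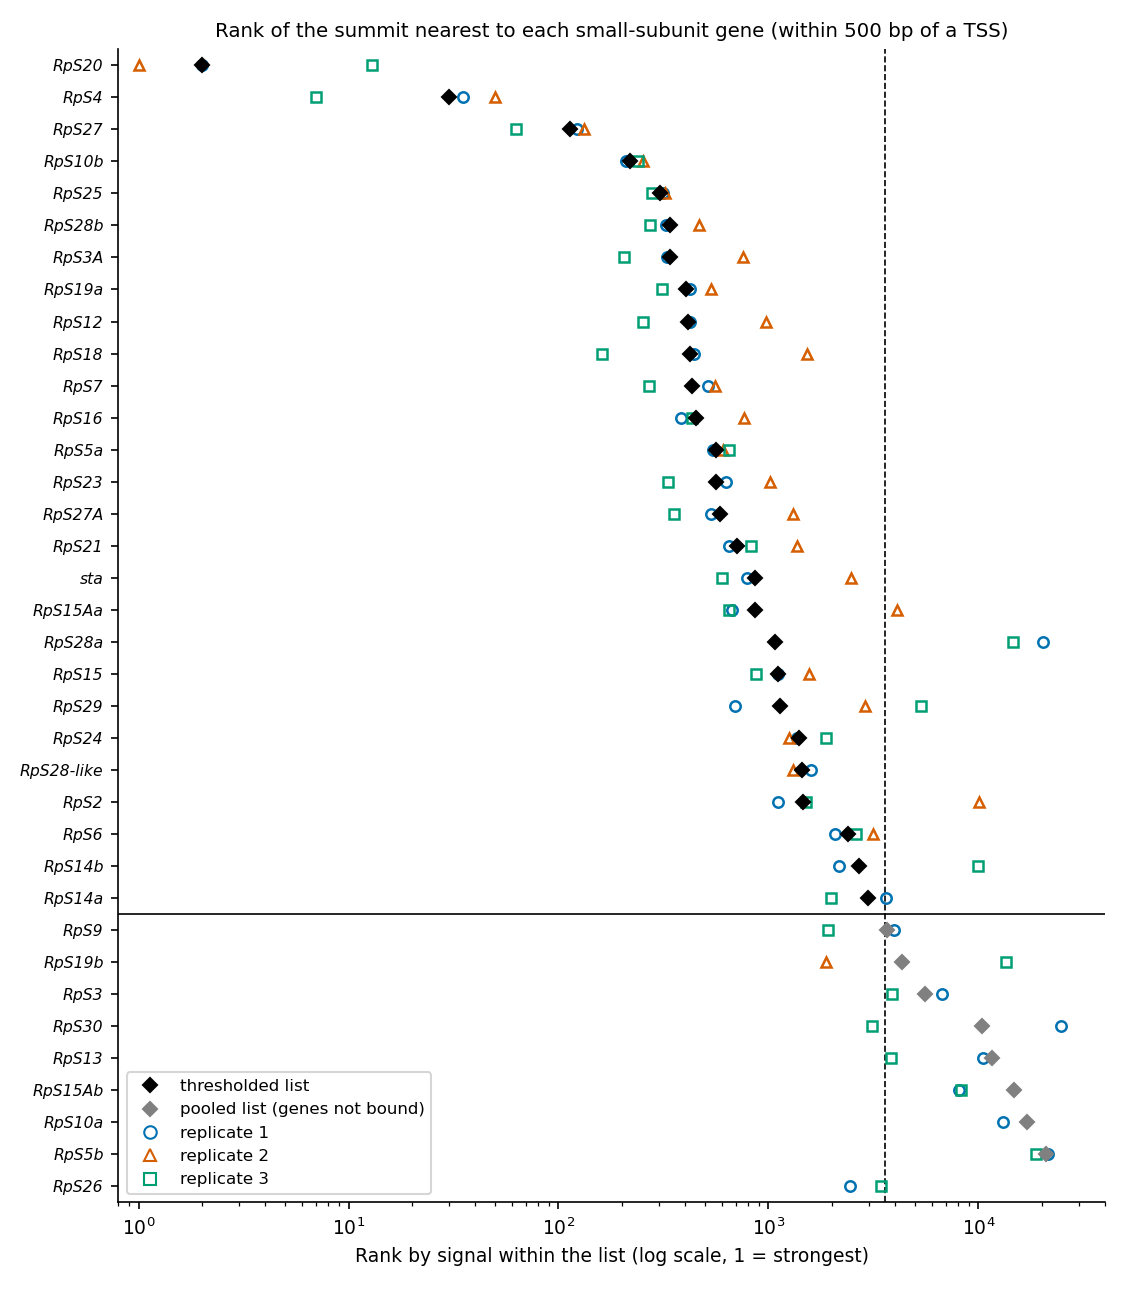
Rank by signal (log axis, 1 is the strongest) of the summit nearest to each plotted small-subunit genes, shown where it lies within 500 bp of a TSS. Diamonds are the thresholded list (black, bound genes) or the pooled list (grey, genes not bound), open symbols the replicates, the dashed line rank 3582 and the horizontal line the border between 27 of the 30 bound genes and the 9 other genes. The bound genes shown span ranks 2 to 2990, and at RpS28a the replicate 1 point is a weak nearer region beside a stronger summit of rank 713.

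The peaks at the small-subunit genes were strong for this list. Their median rank was 575.5 of 3582 (16.1% of the way down the list), against 1675 (46.8%) for all 2155 bound coding genes. The median signal was 439 against 228. In the thresholded list 26 of the 30 were among the 1791 peaks of higher signal, 13 among the first 500 and 2 among the first 100. In the replicates' own lists the median ranks of the members bound there were 583.5, 872 and 535. The order within the set was loose: of 20 neighbouring pairs among the 21 members bound in all 3 replicates, the replicate ranks overlapped in 16. The 4 pairs with separate ranks were RpS4 and RpS27, RpS27 and RpS10b, RpS10b and RpS25, and RpS24 and RpS6.

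Binding was spread over the structural classes of the subunit. In the head 15 of 19 genes were bound, with a median rank of 453, and in the body and platform 15 of 20, with a median rank of 861. Families that bacteria share gave 13 of 18 bound genes (72.2%) and families known only outside bacteria 17 of 21 (81%). In replicates 1, 2 and 3 the counts for the head were 15, 14 and 12 and for the body 15, 10 and 17. Those ranges overlap. Bound members were on all 6 arms that hold any, with 9 of 9 on X, 4 of 6 on 2L, 6 of 7 on 2R, 3 of 4 on 3L, 7 of 12 on 3R and the 1 gene on chromosome 4. The bound share of all coding genes on each arm was not computed, so these counts do not compare the arms.

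The replicates gave nearly the same picture with some losses in replicate 2. When the 3582 regions of highest signal in each replicate were used in place of the thresholded list, 30, 24 and 29 members were bound (27.7 ± 3.21, SD, n = 3). The background over all coding genes was 16%, 13% and 16.1%. All 3 replicates bound 21 members (53.8%, against 7.87% of coding genes), 7 were bound in 2 replicates, 6 in 1 and 5 in none. The thresholded list was made from the same replicates, so the agreement is not independent of the call. Replicate 2 also had fewer regions that reached a q-value of 0.01 or lower, with 2216 against 8919 and 9834 in replicates 1 and 3. Its part in the lower count was not tested.

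Of the 30 bound members 9 were missing from at least 1 replicate, and replicate 2 missed 7 of them. RpS15Aa of the body had ranks of 671 and 648 in replicates 1 and 3 and of 4095 in replicate 2, just past the 3582 regions used. RpS2, which lines the messenger RNA entry channel, had ranks of 1110 and 1511 there and of 10078 in replicate 2. At both genes the replicate 2 summit was still close to a TSS, 26 bp downstream at RpS15Aa and 33 bp downstream at RpS2, but its signal was low.

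Replicate 3 missed 4 bound members, among them RpS29, a zinc-binding protein of the head, with ranks of 693, 2879 and 5334. RpS28-like had ranks of 1599 and 1307 in replicates 1 and 2, and in replicate 3 a region of rank 3018 whose summit lay 517 bp from the TSS, past the limit. RpS28a was bound in replicate 1 alone, through a summit of rank 713 at 496 bp from its TSS. In replicate 3 the summit of the highest regions nearest to it, of rank 664, lay 535 bp away.

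The 9 other genes had no thresholded summit within 500 bp. Of these, RpS9, RpS3 and RpS19b had a pooled summit within 500 bp in a region whose q-value was 0.01 or lower, and the other 6 did not. RpS9, a protein of the messenger RNA entry channel, lay just outside the threshold on signal. Its nearest pooled region had a signal of 143 and rank 3689, 92 bp downstream of a TSS, whereas RpS14a lay inside with a signal of 162 and rank 2990, and the lowest signal of the thresholded list was 146. RpS9 had replicate ranks of 3986 and 1912 in replicates 1 and 3 and no region within 500 bp in replicate 2. RpS3, which lines the entry channel and is also known from DNA repair, had a pooled region of rank 5564 with its summit 42 bp downstream of the TSS, and ranks of 6675 and 3894 in replicates 1 and 3.

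RpS26, a protein of the messenger RNA exit, was bound in replicate 1 (rank 2443, signal 102) and in replicate 3 (rank 3454, signal 42.3), with summits 27 and 30 bp downstream of its TSS. In the pooled list, however, the nearest summit lay 1634 bp away, so the call from the pooled reads and the calls from these replicates were at odds. RpS30, made as a fusion with a ubiquitin-like protein, was bound in replicate 3 (rank 3098, summit 18 bp downstream of a TSS), had rank 24639 in replicate 1 and had a pooled region of rank 10356. RpS13, a protein of the body, had a pooled region of rank 11599 with its summit 3 bp downstream of a TSS. Its replicate ranks were 10576 and 3844 in replicates 1 and 3.

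The other 4 unbound genes were copies of a bound gene. RpS10a had a pooled region of rank 17083 and only replicate 1 had a region within 500 bp, of rank 13075. RpS5b had a pooled region of rank 20945 and ranks of 21416 and 18894 in replicates 1 and 3. RpS15Ab had a pooled region of rank 14775 and ranks of 8074 and 8279 in these replicates. RpS19b was nearest to a call, with a pooled region of rank 4311 and ranks of 1889 and 13518 in replicates 2 and 3. Of the 9 unbound genes 6 had a pooled summit within 100 bp of a TSS and 8 within 500 bp, the exception being RpS26. The pooled list is labelled as peaks and background together. Counting its regions of any strength, 33 of the 39 members (84.6%) had a summit within 100 bp, against 28.5% of coding genes.

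Of 6 sets of genes that encode versions of 1 protein, 4 held a bound and an unbound copy. RpS10b was bound with a signal of 774, while the summit nearest to RpS10a in the thresholded list lay 16579 bp away. RpS5a had a signal of 447 (rank 560, replicate ranks 542, 609 and 650), while RpS5b, known for its expression in the ovary, had its nearest pooled summit 341 bp upstream with a signal of 47.7. RpS19a had a signal of 540. RpS19b, known for its expression in the germ line, had its nearest thresholded summit 860 bp upstream, and in replicate 2 a region of rank 1889 with its summit 354 bp upstream. RpS15Aa had a signal of 335 and rank 865, and RpS15Ab a pooled signal of 59.8.

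The start sites of 3 of these split pairs are shown because both genes encode versions of the same protein under different promoters. Each line covers the 50 bases before the same TSS and the first 11 transcribed bases, and capitals mark a polypyrimidine initiator. The positions are chrX:17148254-17148314 (minus strand), chr3R:14901553-14901613 (minus), chrX:19597981-19598041 (plus), chr3R:27652710-27652770 (plus), chrX:16637844-16637904 (plus) and chr3R:23933520-23933580 (minus). RpS5a and RpS5b both have the initiator, and of the pair only RpS5a was bound. RpS10b and RpS10a both lack it in this window, and RpS10b was bound. In the other 2 split pairs the bound gene has the initiator and the unbound one lacks it, as at RpS19a and RpS19b here and at RpS15Aa and RpS15Ab.
RpS5a: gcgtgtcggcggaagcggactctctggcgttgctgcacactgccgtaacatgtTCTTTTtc
RpS5b: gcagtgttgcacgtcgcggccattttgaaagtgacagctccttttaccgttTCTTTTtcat
RpS10b: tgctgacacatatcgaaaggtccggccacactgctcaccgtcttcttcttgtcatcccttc
RpS10a: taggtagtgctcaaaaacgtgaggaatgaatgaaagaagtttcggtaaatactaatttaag
RpS19a: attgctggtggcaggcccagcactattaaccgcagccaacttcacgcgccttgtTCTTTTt
RpS19b: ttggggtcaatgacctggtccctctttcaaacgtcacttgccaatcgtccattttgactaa

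In the other 2 sets of copies every gene was bound. RpS14a and RpS14b are tandem copies on X that encode the same platform protein. Their peaks were separate (chrX:7933566-7933935 and chrX:7934686-7935055), with signals of 162 and 172 and ranks of 2990 and 2715. RpS14a was bound in replicate 3 (rank 1988) and RpS14b in replicate 1 (rank 2173), and neither had a region within 500 bp in replicate 2. In the RpS28 family RpS28b had its summit 18 bp upstream of the TSS. The summits of RpS28a and RpS28-like lay 496 and 485 bp downstream of the TSS, just inside the distance of 500 bp, with signals of 298 and 249.7. Both of these summits lay outside the gene, past its annotated end. The RpS28a summit was nearer to the TSS of Mgat2, an N-glycan acetylglucosaminyltransferase, at 69 bp, and that of RpS28-like was nearer to numb, an inhibitor of Notch signalling, at 180 bp. Read mapping to copies can blur such calls. Of the 39 promoters, taken as 250 bp to each side of the TSS nearest to the summit (at unbound genes the most upstream TSS), 38 held no word of 36 bases that recurs in the genome, and RpS15Ab held 48 such words (10.3%). The read length is not given in the sources used here.

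The summits sat almost on the start site. The median position at the 30 bound members was 3.5 bp downstream of the nearest TSS, and 11, −4.5 and 4 bp in the replicates (3.5 ± 7.76, SD, n = 3), where negative values are upstream. At all bound coding genes the median was −64 bp. The summit lay upstream at 13 members (43.3%) against 72.8% of all bound coding genes. It lay within 100 bp at 27 of the 30 bound members (90%, against 52.8%), within 50 bp at 25 and within 25 bp at 19. This closeness is not particular to the set. Within 100 bp were also 93.5% of bound large-subunit genes and all 5 bound elongation factor genes. The median distance was 16.5 bp at large-subunit genes and 20.5 bp at small-subunit genes. Of all 39 members 27 had a thresholded summit within 100 bp, against 8.15% of coding genes. The 3 exceptions among the bound were RpS20, RpS28a and RpS28-like.

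**Figure D2:**
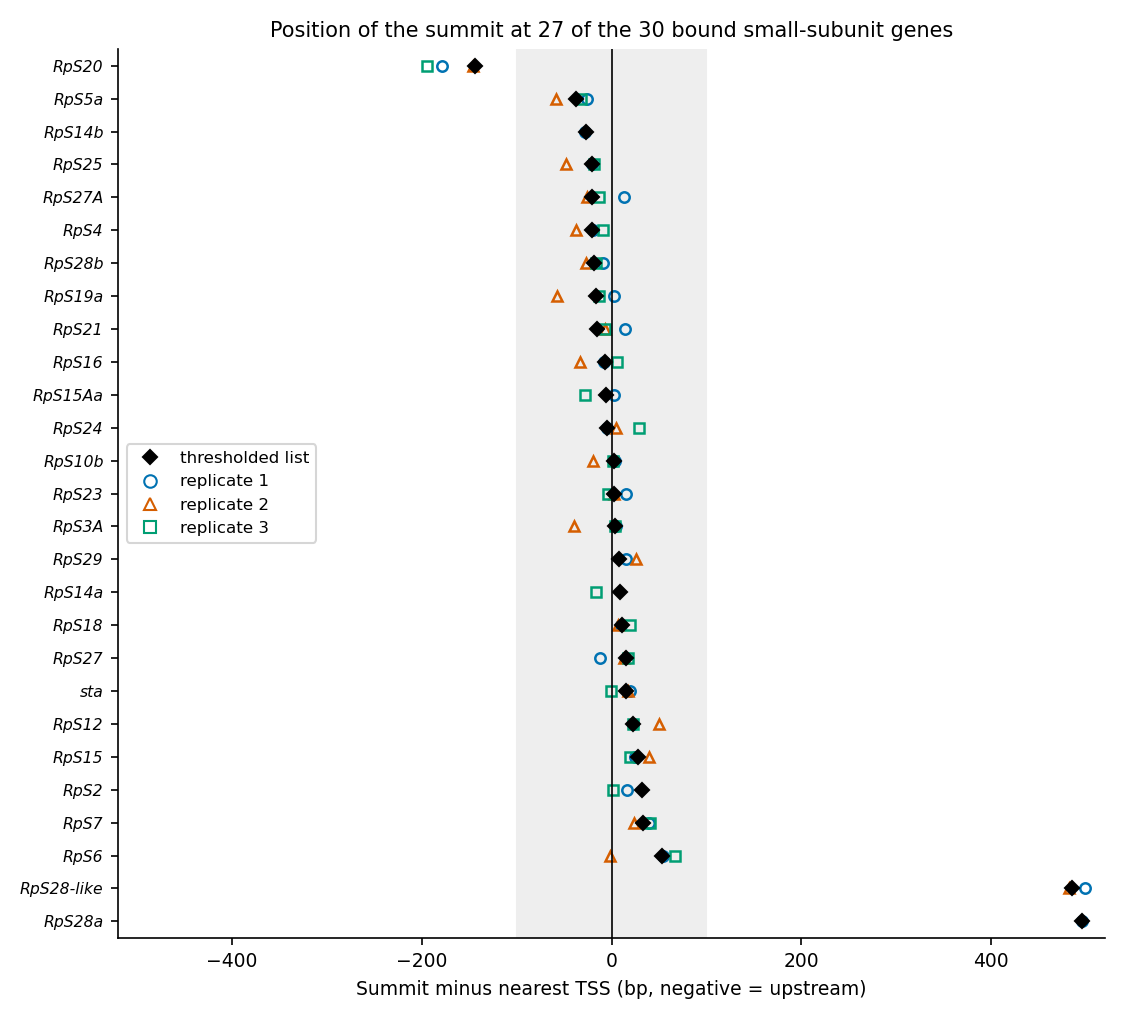
Distance in bp from the nearest TSS to the summit at 27 of the 30 bound small-subunit genes, with black diamonds for the thresholded list and open symbols for replicates in which the gene was bound. The grey band covers 100 bp to each side of the TSS and holds 24 of the 27 diamonds. RpS20 lies upstream of it, and RpS28a and RpS28-like lie near the limit of 500 bp downstream.

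Among the summits near the TSS, that of RpS5a lay 37 bp upstream and that of RpS6 53 bp downstream. For 25 bound members with a region within 500 bp in every replicate, the replicate summits of a gene spanned a median of 33 bp. Across these 25 genes Spearman's correlation of the ranks was 0.905 between replicates 1 and 2, 0.784 between 1 and 3, and 0.648 between 2 and 3. The points share the caller and the control of the study, and genes are not independent replicates. The peaks at bound members were also narrow, with a median width of 290.5 bp against 370 bp for the whole list.

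A gene with more annotated start sites, or with a close neighbour, has more chances to be called bound. Of members with 1 annotated TSS 14 of 19 were bound, against 11.1% of such coding genes, with 2 TSSs 12 of 14 against 23.7%, and with 3 or more 4 of 6 against 35.9%. A divergent coding neighbour, starting head to head within 1000 bp, was present at 19 of the 30 bound members (63.3%, against 55.9% of all bound coding genes), a share close to that background. Of all 39 members 22 had one (56.4% against 36.2%). The 30 bound members had 30 different peaks, and at 13 of them the same summit lay within 500 bp of another coding gene's TSS, against 44.1% of all bound coding genes. The partners included CG17271 at RpS20, Nup37 at RpS27, Rok at RpS19a, plu at RpS18, CG4294 at RpS16, CG4820 at RpS25, CG3104 at RpS21, inc at sta, Ip259 at RpS27A, Dhdds at RpS14a, Mgat2 at RpS28a and numb at RpS28-like. At 17 bound members no other coding gene was within that distance. Of 13 members with a small nucleolar RNA gene inside their bounds, on the same strand, 12 were bound, the other being RpS9. Of the whole set 76.9% were bound. The share among all coding genes that hold such RNA genes was not computed.

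Large-subunit genes had a similar median rank and a higher bound share in every replicate. Of the 54 RpL genes 46 were bound (85.2%; 45, 44 and 46 in the replicates, 45 ± 1, SD, n = 3), with a median rank of 566.5, and 75.9% were bound in all 3 replicates, against 53.8% of the small-subunit genes. Their summits lay upstream at 71.7% of bound genes, with a median of −15.5 bp, and the replicate medians of −11, −24.5 and −6 bp were each more upstream than the 11, −4.5 and 4 bp at the small-subunit genes in the same replicate. Mitochondrial small-subunit genes were bound in 11 of 26 cases (42.3%; 11, 10 and 9 in the replicates), with a median rank of 1767 and a median position of −137 bp. Their replicate medians were −133, −136 and −145 bp, apart from the values of 11, −4.5 and 4 bp at the small-subunit genes. Initiation factor genes were bound in 13 of 44 cases (29.5%) and elongation factor genes in 5 of 8 (62.5%).

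**Figure D3:**
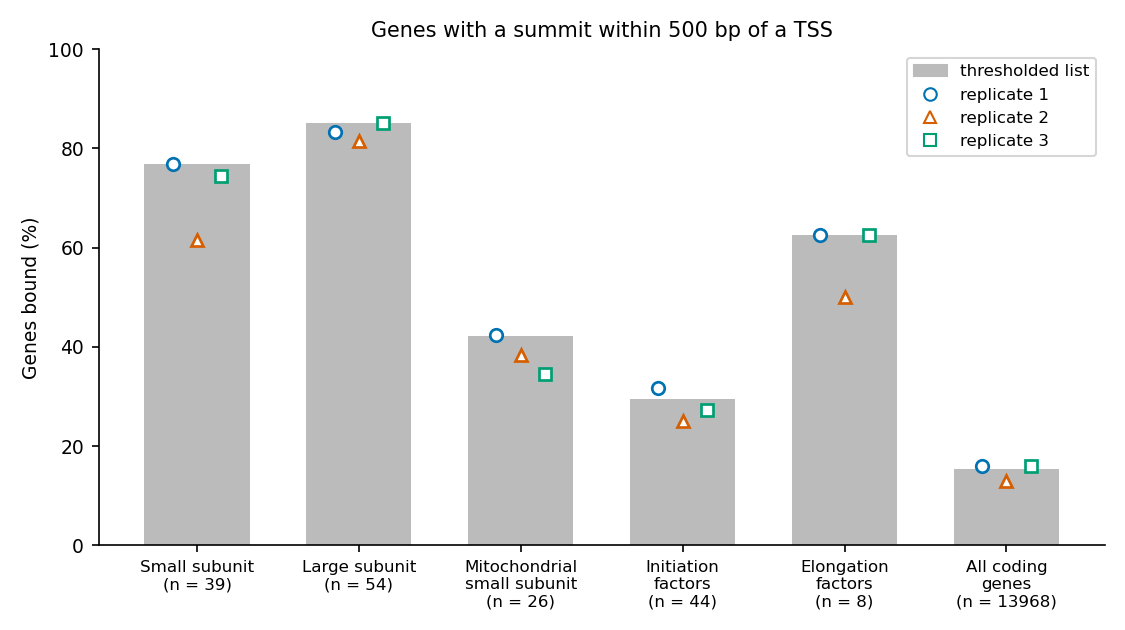
Percent of genes bound in the thresholded list (bars) and in the 3582 highest regions of each replicate (symbols), for the small-subunit genes and 5 other sets of genes. Small-subunit genes stood at 76.9% against 85.2% for large-subunit genes and 15.4% for all coding genes, and replicate 2 gave the lowest share in 5 of the 6 sets.

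Genes that work with the small subunit or control its making were bound in 5 of 8 cases on a short list, against 15.4% of coding genes. The list was chosen with earlier results of these data known, so its share is no test of such genes. Rack1, a scaffold protein that sits on the head of the subunit, had a signal of 459 and rank 543 with its summit 7 bp downstream of the TSS. Dref, the gene of the DRE-binding factor, had a signal of 635 and rank 315. That summit lay 83 bp upstream of Dref but 1 bp upstream of the TSS of RpL13, a large-subunit gene, and it cannot be assigned to 1 of the pair from these lists. Thor, the inhibitor of cap-dependent initiation, had a signal of 392, and Trf2, a TBP-related factor used at ribosomal protein promoters, a signal of 182. S6k, the kinase of RpS6, had a signal of 163. The summits at Rack1 and S6k also lay within 500 bp of mts and kri. M1BP, Myc and mTor had no thresholded summit within 500 bp of a TSS. Myc was nevertheless bound in 2 of the replicates, as many as Trf2 and S6k, while Rack1, Dref and Thor were bound in all 3.

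Promoter elements were searched for on either strand in the 100 bp to each side of each summit. The DRE (TATCGATA) was present at 7 of the 30 bound members (23.3%), against 8.49% of all bound coding genes, and they were RpS14a, RpS15Aa, RpS25, RpS24, RpS29, RpS10b and RpS12. Its centre lay between 76 bp upstream and 10 bp downstream of the summit. The core CGATA, which every DRE contains, was present at 18 (60% against 39.4%). Within 50 bp of the summit the shares with the core were closer, 26.7% against 23%. The M1BP element (GGTCACAC) was present at 4 members, RpS23 and RpS15 among them (13.3% against 8.12%). GAGAG, the site of GAGA factor, was present at 4 (13.3% against 26.3%). The E-box CAGCTG was at RpS14b, RpS4, RpS21, RpS16, RpS27 and RpS6 (20% against 15.8%). At the 46 bound large-subunit genes the shares were similar for the DRE (23.9%), its core (65.2%), the M1BP element (15.2%) and GAGAG (17.4%). CAGCTG was at none of these 46, and at 4 of 11 bound mitochondrial small-subunit genes (36.4%). GAATACCC was present at RpS4 alone, with its centre 42 bp upstream of the summit (3.33% against 4.97%).

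**Figure D4:**
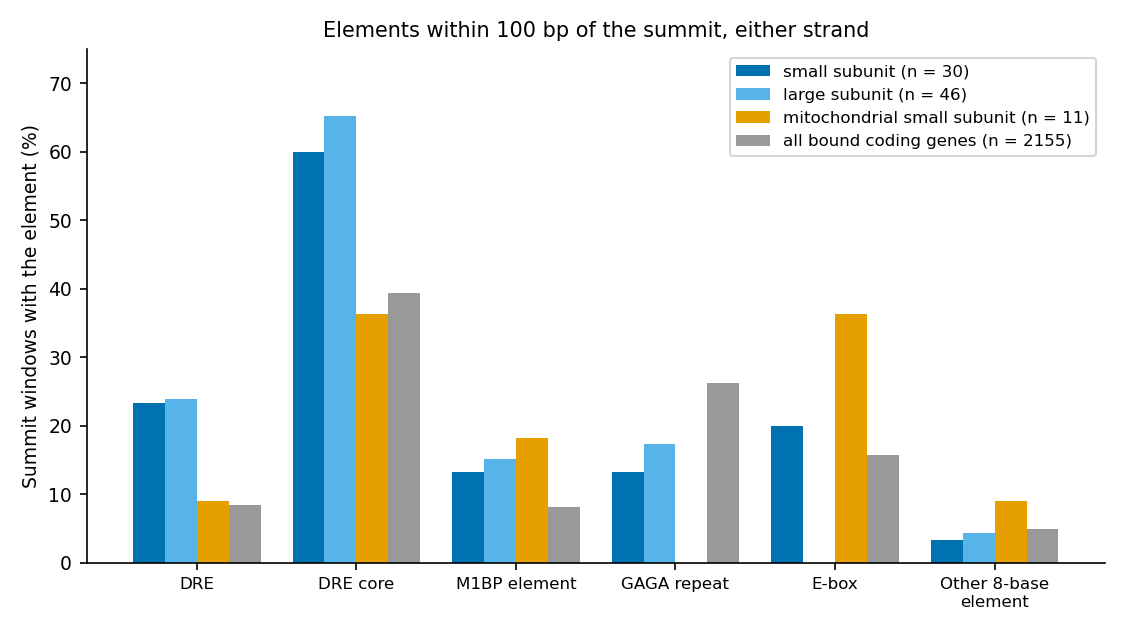
Percent of summit windows (100 bp to each side) that hold each element on either strand, at bound genes of 3 ribosomal protein sets and at all bound coding genes. The element on the right is the GAATACCC word. The DRE was at 23.3% of small-subunit windows, 23.9% of large-subunit windows and 8.49% of all windows, and GAGAG at 13.3%, 17.4% and 26.3%.

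Over whole promoters, from 250 bp before to 50 bp after the most upstream TSS, the DRE was present at 13 of the 39 members (33.3%, against 9.36% of coding genes). The M1BP element was present at 6 (15.4% against 7.69%), GAGAG at 4 (10.3% against 29.7%), CAGCTG at 6 (15.4% against 17.6%) and GAATACCC at 1 (2.56% against 1.03%). Of the 54 large-subunit promoters 27.8% held the DRE, 16.7% the M1BP element, 22.2% GAGAG, 5.56% CAGCTG and 5.56% GAATACCC. The DRE was found in the promoters of RpS13, RpS30 and RpS15Ab, which were not bound, as well as in those of 10 bound members. RpS20, of rank 2, had none of the 6 elements in its summit window, and RpS14a, of rank 2990, had a DRE in its own.

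The polypyrimidine initiator was searched as a T or C, then CTTT, then a T or C, on the strand of the gene within 10 bp of any TSS. It was present at 25 of the 39 members (64.1%), against 3.03% of coding genes, at 38 of 54 large-subunit genes and at none of 26 mitochondrial small-subunit genes. Within the set it was carried by 19 of 30 bound members (63.3%) and by 6 of 9 unbound members (66.7%). At the most upstream TSS alone it was present at 13 members (33.3% against 1.98%). Of all 423 coding genes with the initiator 137 (32.4%) were bound, and of the 360 that are not cytosolic ribosomal protein genes 85 (23.6%).

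A word of 12 bases, CGCAGCCAACTT, recurred under 4 peaks and was found by searching the promoters of the members for shared words, after the data were seen. It is shown with 9 bases on each side, in capitals, on the strand that spells it so, because all of it lay within 16 bp of each of the 4 summits. The stretches lie at chrX:16637865-16637894, chr2L:2856074-2856103, chrX:9554580-9554609 and chr3R:25247474-25247503, all on the plus strand, which is the strand opposite to RpS27 and the strand of the other 3.
RpS19a: actattaacCGCAGCCAACTTcacgcgcct
RpS21: cacgcgcagCGCAGCCAACTTcacgtccag
RpS28b: cctgcgcaaCGCAGCCAACTTcacgtcgct
RpS27: ggggtaaatCGCAGCCAACTTaacttgccc

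The word starts 4 bp upstream of the summit at RpS19a, 13 bp upstream at RpS21 and 16 bp upstream at RpS28b, and at RpS27 it starts 5 bp downstream on the gene's strand, as AAGTTGGCTGCG. Of the 13968 coding promoters 18 (0.129%) held it on either strand, of which 12 were bound, among them RpL27A and RpL28. The 12 include the 4 members from which the word was picked. Of the 14 other promoters 8 were bound, against 15.4% of all coding genes. Among the 8 is Nup37, whose promoter overlaps that of RpS27, holds the same copy of the word and shares the same summit. RpL27A and RpL28 are also among them, from a set with 85.2% of genes bound. The count is therefore no independent test of the word. In RpS19a, RpS21 and RpS28b the shared stretch extends to 16 bases, CGCAGCCAACTTCACG, and no other coding promoter held that longer word. These 3 genes encode unrelated proteins of the subunit. No other word of 12 bases was found in more than 3 of the 39 promoters.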

How the data were processed

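Regions bound by GFP-tagged wek were taken from the lists the authors deposited on the dm6 build, per the labels: a relaxed list of 30000 regions for each of 3 replicates, one for the pooled replicates, and a thresholded list of 3582 regions, which are the 3582 pooled regions of highest signal. Each deposited region carries the caller's signal value, comparable within 1 list only, the −log10 of a q-value as the authors give it, and a summit. Which aligner, caller and threshold were used is not given in the sources used here, nor is the read depth, so no interval that needs depth is given. Summits past the end of their region (4 in all) were set to its last base.

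Start sites came from Ensembl release 115 (BDGP6.54). Regions were ranked by signal, and the nearest summit to any TSS of each gene was taken over all 13968 coding genes. For each replicate the 3582 regions of highest signal were used. Python 3.11.15, pandas 2.3.3, numpy 2.4.6, scipy 1.17.1 and matplotlib 3.10.9 were used, and the search was tested on simulated data. Neither p-values nor set tests were computed, since there is 1 group and genes are not replicates. Members are named with their calls, except 3 bound ones that are not reported here by name and enter only the counts and medians. Values in every list are given for the remaining ones among the 12 bound members of highest signal, the unbound members, copies that share a number and members whose call differs between lists. The members and all gene lists were chosen with earlier results of these data known. The classes of head, body and conserved family are textbook ones. One listed gene, Tor, is mTor in the annotation. Alternatives covered distance, strength, start sites and leaving out each replicate.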

Additional observations from a re-analysis of the deposited data

How the results depend on the processing

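The number of bound members was 30 and ranged from 26 to 33 over 7 other settings of distance, strength and start sites, and from 22 to 27 on leaving out each replicate in turn, where a peak had to overlap the highest regions of both other replicates. The mean number in the replicates was 27.7, with 22.7 to 29.3 over 4 settings and 26.5 to 29.5 on leaving out 1 replicate. The 33 came from pooled regions whose q-value was 0.01 or lower and add RpS3, RpS9 and RpS19b. Of the 39 members 19 were bound under all of these 10 settings and 6 under none of them, namely RpS13, RpS10a, RpS15Ab, RpS5b, RpS30 and RpS26. Without RpS28a and RpS28-like, a choice made after the data were seen, 28 members were bound and the median position was 3 bp. RpS14a and RpS14b were lost on leaving out any of the replicates. The median rank stayed between 11.9% and 16.5% of the list, and leaving out a replicate gave a median position of −1 to 3 bp and 15 to 18 bound members with a divergent neighbour. In these settings 1911, 2322 and 2258 peaks were kept without replicates 1, 2 and 3. Their summits and ranks still came from the list made from all 3 replicates, so position and rank could change only through the peaks lost. The share of all coding genes was not computed for them. Nor was it computed for the other settings of distance, strength and start sites, except within 100 bp (27 members, against 8.15% of coding genes). Some values moved. With the most upstream TSS alone the median position was 13 bp in place of 3.5 bp. With head-to-head starts within 500 bp, 12 bound members had a divergent neighbour in place of 19. In windows of 50 bp to each side of the summit the DRE was at 3 members in place of 7 (10%, against 4.92% of all bound coding genes). Its core was at 8 in place of 18 (26.7% against 23%), so its share came near that background. The M1BP element was at 2 in place of 4 (6.67% against 4.32%) and GAGAG at 2 in place of 4 (6.67% against 14.1%). With 150 bp GAGAG was at 8 (26.7% against 37.1%). These windows are shorter or longer by construction. No paired analysis was possible because the series holds 1 group. Depth is unknown, and signals near the lowest value of the thresholded list, as at RpS9, should be read as borderline.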

Other observations

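Of the 6 unbound members with the initiator, RpS3, RpS13, RpS9, RpS5b, RpS30 and RpS26, the first 3 and RpS30 also had a pooled region, of any strength, with its summit within 100 bp of a TSS. So did RpS10a and RpS15Ab, which lack the initiator, but not RpS19b, which also lacks it. Among all coding genes the share with such a region was 28.5%. The 12-base word shared by RpS19a, RpS21, RpS28b and RpS27 was also found in 14 coding promoters outside the small-subunit set. Of these 8 were bound, against 15.4% of all coding genes. The 8 include RpL27A, RpL28 and Nup37, which has the RpS27 copy of the word and shares its summit, so they are no independent test.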
